A study of Mus musculus with 3 samples.

Results

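The 10 genes followed here mark the secretory cells of lung airways and alveoli, and were read across 3 RNA sequencing libraries of mouse mammary cells. They were taken by gene name as a list of club cell and alveolar type II genes, chosen with earlier results of these data known. Each of the 10 names stood on 1 gene model of the 22378 in the deposited tables and was among the 22077 names analysed. All material had an FVB background. The first library, LCC (lung-colonizing cells), was made from mammary cells given intravenously and recovered by flow sorting of recipient lungs after 1 day. The sort relied on GFP carried by FVB.GFP donors, or on DDAO stain for cells of FVB mice. The design text gives, for each experiment, 8 FVB.GFP females as donors and 4 FVB recipients, with 2 doses of 2500000 cells. The pool came to 455880 cells, taken from 42 lungs over 15 experiments, and the labels mention neither an EpCAM nor a CD29 gate for it. The second, E-Int29-Hi, was a sort on EpCAM-intermediate, CD29-high mammary cells, with 3 samples combined and no passage through a lung. The third, MG, was intact gland that was never dissociated, again with 3 samples combined. The question addressed by the design is how expression in LCC compares with the other populations.

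Club cells are secretory cells of the conducting airways. They release secretoglobins, small secreted proteins of the airway lining fluid, and carry cytochrome P450 enzymes that metabolise inhaled chemicals. Alveolar type II cells make pulmonary surfactant, a film of lipid and surfactant proteins that lowers surface tension in the alveoli, and store it in lamellar bodies before release. In both cell types many of these genes are known targets of the transcription factor Nkx2-1, and neither cell type belongs to the mammary gland.

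Each group was a single pooled library. No test or replicate error exists for any difference below, and the values describe these pools only. Levels are the FPKM that the authors deposited, that is, fragments scaled by gene length and library size. A log2 change is that of (FPKM + 1), a scale on which low genes change less than their levels do. A gene was called higher or lower when at least 4-fold apart on it, provided 1 of the pair of libraries had 1 FPKM or more, so that a call needs 3 FPKM in the higher library. Against a library in which a gene is listed at 0, no fold is given, since it would rest on the added 1 alone. Such a gene still entered the counts of calls where it passed the filter. All models analysed had status OK, so no such 0 was flagged as failed, but a 0 need not mean absence. In a bulk library, fewer cells of a type and less RNA per cell cannot be told apart.

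Approximate depth was read from the tables. Among 3247 genes with a single annotated transcript, low FPKM values times the effective transcript length (its length less 130 to 150 bases) gathered in steps. The first step, taken as 1 fragment, lay at 0.0219 FPKM times kilobases for LCC, 0.0194 for E-Int29-Hi and 0.0185 for MG. Its peak held 29 genes for LCC, against 107 for E-Int29-Hi and 172 for MG, so the LCC step rests on the fewest genes. The steps imply about 45600000 fragments for LCC, 51600000 for E-Int29-Hi and 54000000 for MG. The number of gene names listed at 0 was 6819 for LCC, 4952 for E-Int29-Hi and 3163 for MG. Fragment numbers given below are estimates from these steps, count sequenced fragments, and may include copies made during amplification.

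**Figure D1:**
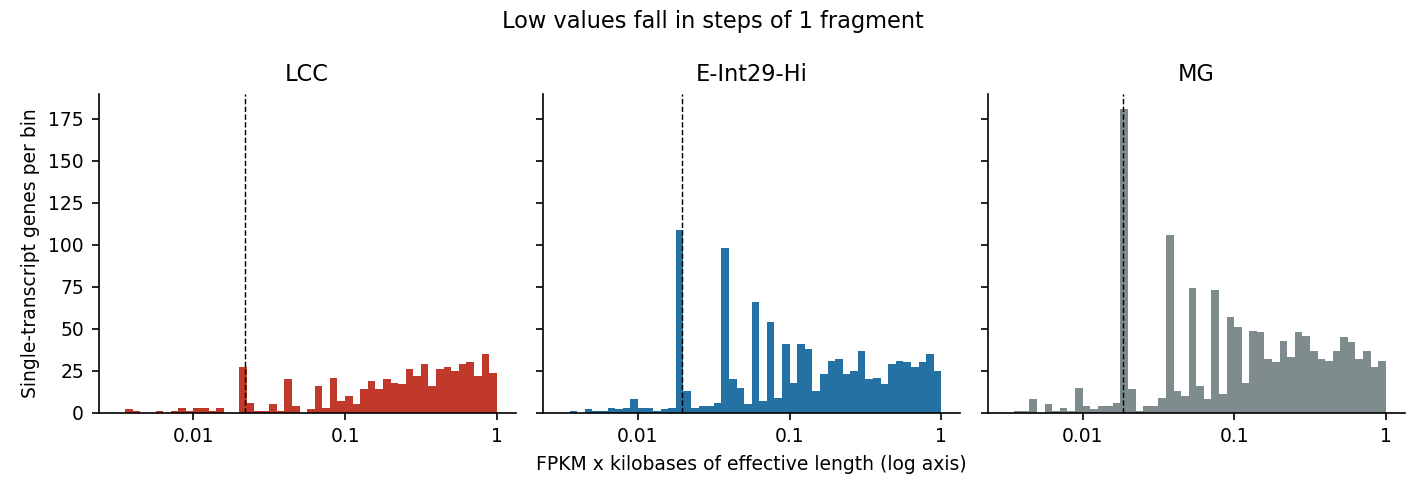
Number of single-transcript genes (y axis) by FPKM times kilobases of effective length (x axis, log), 1 panel per library, with a dashed line at the value taken as 1 fragment. The bars stand at steps of the dashed value in each library, and the first step holds 29 genes for LCC, 107 for E-Int29-Hi and 172 for MG.

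All 10 genes had their highest level in LCC, and most were near or at 0 in the other libraries. Of the 10, 9 reached 1 FPKM in LCC, against 2 in E-Int29-Hi and 2 in MG. Those 2 were Cyp2f2 and Lamp3 in both libraries. The 10 levels summed to 649 FPKM in LCC, 5.14 FPKM in E-Int29-Hi and 3.13 FPKM in MG. Scgb1a1 alone made up 88.1% of the LCC sum. The other 9 summed to 77.2 FPKM in LCC, 4.34 FPKM in E-Int29-Hi and 2.78 FPKM in MG. Without Cyp2f2 and Lamp3, the 8 remaining genes summed to 643 FPKM in LCC, 1.24 FPKM in E-Int29-Hi and 0.924 FPKM in MG. The 4 club cell genes made up 0.160% of the summed FPKM of LCC, 0.00113% of that of E-Int29-Hi and 0.000595% of that of MG. The 5 alveolar type II genes (the surfactant proteins and Lamp3) made up 0.0128%, 0.000449% and 0.000491% of the same sums.

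**Figure D2:**
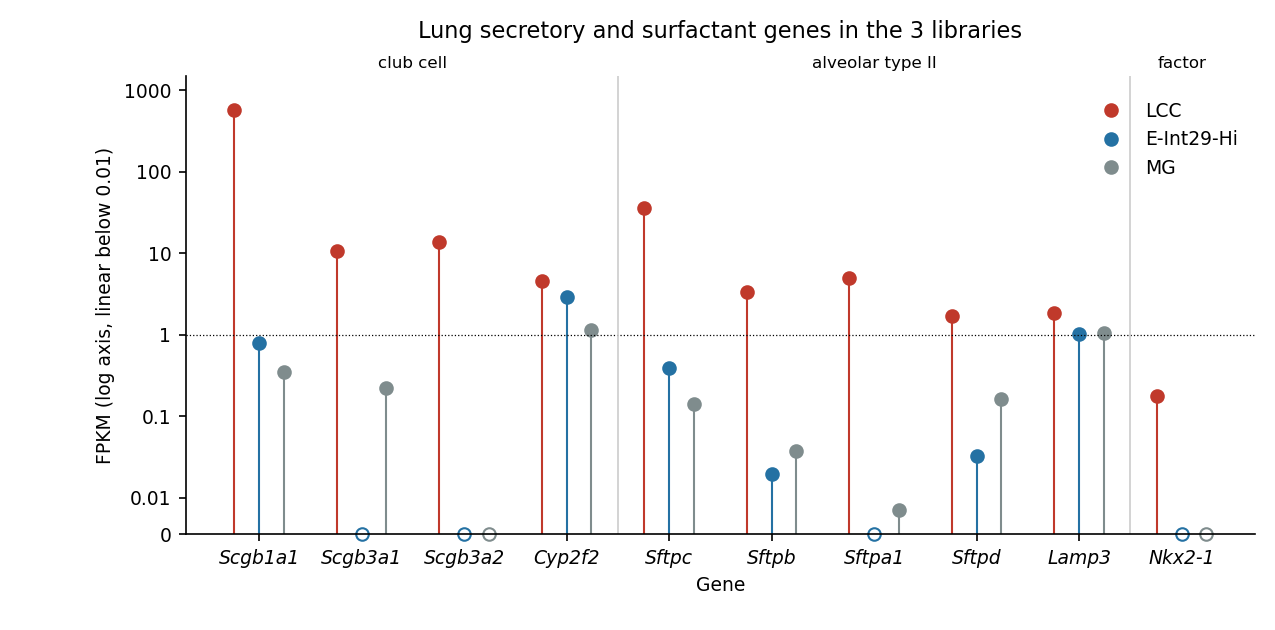
FPKM (y axis, log above 0.01 and linear below) of the 10 genes in LCC, E-Int29-Hi and MG, 1 point per library; open circles are genes listed at 0 and the dotted line marks 1 FPKM. The LCC point is the highest for every gene, from 0.177 FPKM for Nkx2-1 to 572 FPKM for Scgb1a1, and the Cyp2f2 and Lamp3 points lie closest together.

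Scgb1a1 (ENSMUSG00000024653) encodes the major secretoglobin of club cells. It stood at 572 FPKM in LCC, 0.798 FPKM in E-Int29-Hi and 0.352 FPKM in MG. In LCC it ranked 80th of the 22077 gene names, against 11467th in E-Int29-Hi and 13817th in MG. Its annotated transcript is short, at 476 bases over 3 exons on chromosome 19, and about 9026 fragments stood behind the LCC level, against 13.4 in E-Int29-Hi and 6.20 in MG. The log2 change was 8.32 for LCC over E-Int29-Hi and 8.73 for LCC over MG. Taken directly, the FPKM ratios were 716 and 1625, each resting on few fragments in the lower library. The coding sequence of 291 bases (GENCODE M21 transcript, build GRCm38) is shown because this gene carries most of the summed level, with the start and stop codons in capitals:
Scgb1a1: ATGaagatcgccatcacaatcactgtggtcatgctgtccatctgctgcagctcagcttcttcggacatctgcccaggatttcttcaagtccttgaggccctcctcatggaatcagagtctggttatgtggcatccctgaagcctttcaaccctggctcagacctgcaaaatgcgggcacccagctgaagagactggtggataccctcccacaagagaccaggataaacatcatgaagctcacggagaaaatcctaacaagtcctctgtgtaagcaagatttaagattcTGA

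The other secretoglobin genes had lower levels than Scgb1a1 in LCC. Scgb3a2, a secretoglobin of the airway epithelium, stood at 13.6 FPKM in LCC and was listed at 0 in both E-Int29-Hi and MG. It had the highest LCC level of the 58 gene names that were above 0 in LCC and listed at 0 in both other libraries. Scgb3a1, also secreted by airway epithelium, stood at 10.7 FPKM in LCC, was listed at 0 in E-Int29-Hi and stood at 0.223 FPKM in MG. The LCC level rested on about 177 to 229 fragments, depending on the transcript assumed, and the MG level on 4.12 to 5.39. Its log2 change for LCC over MG was 3.26. In LCC, Scgb1a1 exceeded Scgb3a2 by 42.1 times and Scgb3a1 by 53.4 times in FPKM. A further secretoglobin gene, Scgb1c1, stood at 0.467 FPKM in LCC, 0.0704 FPKM in E-Int29-Hi and 0.135 FPKM in MG.

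Cyp2f2, the club cell cytochrome P450 that activates naphthalene in mice, differed less between libraries than the secretoglobins did. It stood at 4.53 FPKM in LCC, 2.87 FPKM in E-Int29-Hi and 1.14 FPKM in MG. The log2 changes were 0.51 for LCC over E-Int29-Hi and 1.37 for LCC over MG, both short of 4-fold. E-Int29-Hi stood between LCC and MG, with a log2 change of 0.86 over MG. Its level in E-Int29-Hi was 63.5% of that in LCC.

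Sftpc encodes a hydrophobic surfactant protein that in the adult lung is made by alveolar type II cells. It stood at 36.3 FPKM in LCC, 0.390 FPKM in E-Int29-Hi and 0.143 FPKM in MG, from about 1097, 12.9 and 4.96 fragments. Its rank was 1735th in LCC, 12693rd in E-Int29-Hi and 15185th in MG. The log2 change was 4.75 for LCC over E-Int29-Hi and 5.03 for LCC over MG, and the FPKM ratios were 93.2 and 254. Sftpc was thus second to Scgb1a1 in LCC, which exceeded it by 15.7 times.

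Sftpb, the other hydrophobic surfactant protein, which is needed to form lamellar bodies, stood at 3.34 FPKM in LCC, 0.0198 FPKM in E-Int29-Hi and 0.0377 FPKM in MG. The LCC level rested on about 153 to 207 fragments, against at most 1.37 in E-Int29-Hi and at most 2.73 in MG. The log2 changes of 2.09 for LCC over E-Int29-Hi and 2.07 for LCC over MG lay just past 4-fold. Sftpa1 and Sftpd encode collectins, surfactant proteins that bind microbial sugars. Sftpa1 stood at 4.99 FPKM in LCC, was listed at 0 in E-Int29-Hi and stood at 0.00680 FPKM in MG, which amounts to at most 0.994 of a fragment. Its log2 change for LCC over MG was 2.57. Sftpd stood at 1.71 FPKM in LCC, 0.0330 FPKM in E-Int29-Hi and 0.162 FPKM in MG, or about 89.2, 1.92 and 9.83 fragments. Its log2 changes of 1.39 for LCC over E-Int29-Hi and 1.22 for LCC over MG were not called, and its LCC level lay under the 3 FPKM that a call needs.

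Lamp3 encodes a lysosome-related membrane protein of lamellar bodies that mature dendritic cells also carry. It stood at 1.83 FPKM in LCC, 1.02 FPKM in E-Int29-Hi and 1.07 FPKM in MG, from about 269, 169 and 185 fragments. The log2 changes were 0.48 for LCC over E-Int29-Hi and 0.45 for LCC over MG, and -0.03 for E-Int29-Hi over MG. It differed least across the libraries among the 9 genes past the filter. Nkx2-1, the lung and thyroid homeobox factor, stood at 0.177 FPKM in LCC, from about 17.0 to 21.6 fragments, and was listed at 0 in E-Int29-Hi and MG. It lay below the 1 FPKM filter in each comparison and entered no count.

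Between LCC and E-Int29-Hi, 9 of the 10 genes passed the filter, 6 were called higher in LCC and 0 lower. Over all 12147 genes tested, 4.64% were called higher and 4.35% lower. The 6 were Scgb1a1, Scgb3a1, Scgb3a2, Sftpa1, Sftpb and Sftpc, and Scgb1a1 and Sftpc lay farthest past the threshold among those above 0 in both libraries. Passing the filter was due to the LCC level alone for 7 of the 9, and such genes had to be higher in LCC. The list was also chosen with earlier results of these data known, so the shares over all genes give background and no test. The median log2 change of the 9 was 2.58, beside 0.26 over all genes tested. Scgb3a1, Scgb3a2 and Sftpa1 were listed at 0 in E-Int29-Hi, and without them 3 of 6 were called and the median was 1.74. With a pseudocount of 5 in place of 1, 2 genes were called, Scgb1a1 and Sftpc.

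The comparison of LCC with MG called the same 6 of 9 genes higher and 0 lower, where 1.33% of 12443 genes were called higher and 2.63% lower. Both comparisons share the LCC library, and both use the list chosen with earlier results known. Here too, 7 of the 9 genes passed the filter through their LCC level alone, so the choice by the filter favours a positive median. The median log2 change of the 9 genes past the filter was 2.57, beside 0.01 over all genes. Scgb3a2 was listed at 0 in MG, and without it 5 of 8 were called and the median was 2.32. With a pseudocount of 5, 2 genes were called, Scgb1a1 and Sftpc again. Between E-Int29-Hi and MG, Cyp2f2 and Lamp3 alone passed the filter, and 0 genes were called in either direction, where 2.60% of 12430 genes were called higher and 3.97% lower in E-Int29-Hi.

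**Figure D3:**
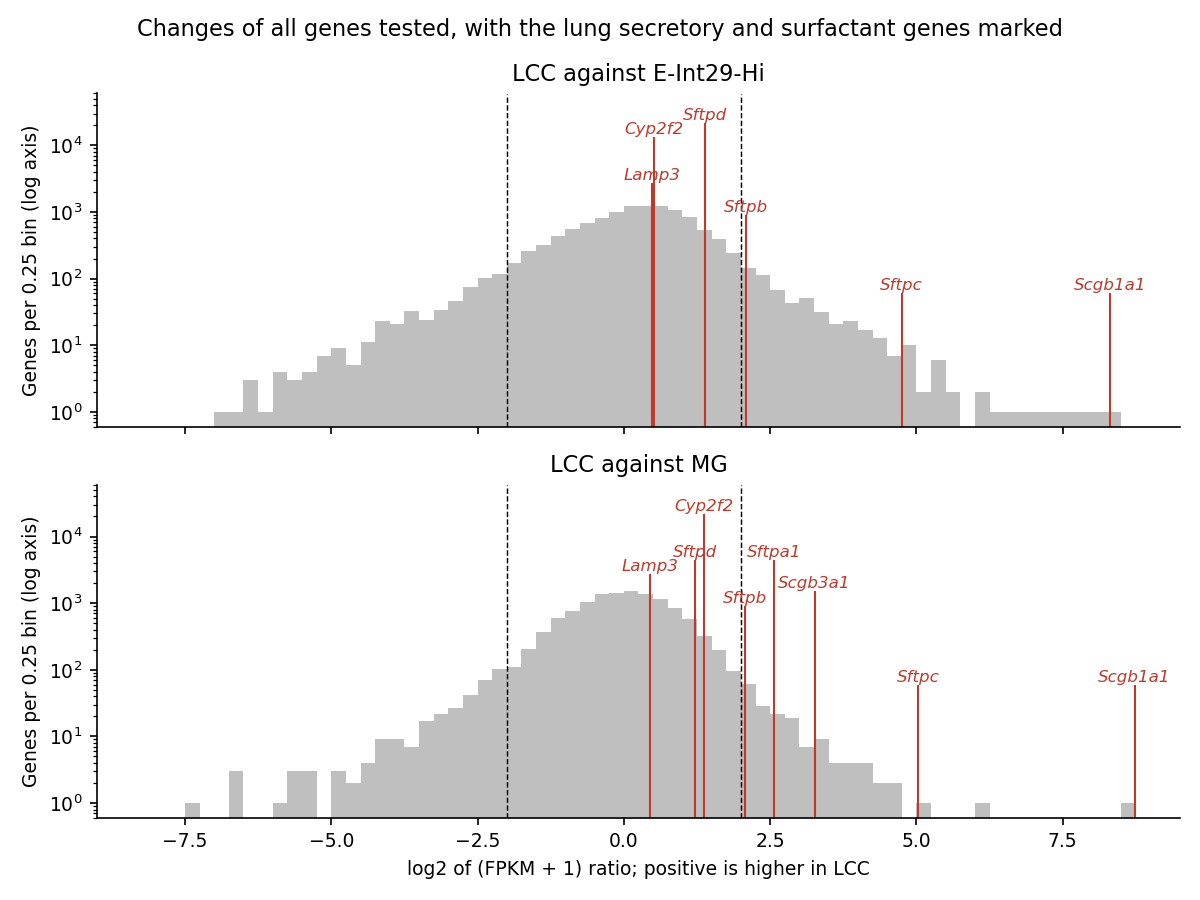
Number of genes (y axis, log) by log2 change of FPKM + 1 (x axis, positive is higher in LCC) for LCC against E-Int29-Hi above and LCC against MG below; dashed lines mark 4-fold, and red lines mark those of the 10 genes past the filter that are above 0 in both libraries, so Scgb3a2 is in neither panel and Scgb3a1 and Sftpa1 are in the lower one only. Scgb1a1 lies at 8.32 and 8.73, Sftpc at 4.75 and 5.03, and Lamp3 within 0.5 of no change.

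By likeness of pattern, the distance between log2 profiles centred on their mean over the 3 libraries was taken across 12772 gene names at 1 FPKM or more in any library. The 5 nearest to Scgb1a1 were Lars2, a mitochondrial leucyl-tRNA synthetase, Sftpc, Serpinb2, Ccl17 and Inhba, at distances of 2.58 to 3.27. Lars2 stood at 2377 FPKM in LCC, 86.9 FPKM in E-Int29-Hi and 30.7 FPKM in MG. The 5 nearest to Sftpc lay much closer, at 0.32 to 0.82, and were Ccl17, Ccl22, Il12b, Mmp9 and Il23a. Ccl17, a chemokine known from dendritic cells, stood at 47.0 FPKM in LCC, 0.989 FPKM in E-Int29-Hi and 0.997 FPKM in MG. Likeness over 3 pools is a coarse measure, and the distance is not scaled for the size of a change. Few genes were as far above the other libraries in LCC as Scgb1a1, so its larger distances need not mean a less alike pattern.

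Promoters of 6 of the 10 genes were found in the RefSeq promoter table (build GRCm38.p6). Those of Scgb1a1, Scgb3a2, Sftpc and Sftpd were not found, so the genes with the highest LCC levels were not searched. The values above are on mm9 per the submitters' processing notes, and the sequences were matched by symbol only. Within the 250 bases before the start site, 4 motifs were searched on both strands: CTCAAG for Nkx2-1, TGTTTAC for Foxa factors, TTGCNNCAA for C/EBP factors and TATAAA for the TATA box. Among 32851 promoters of that length, 13.3% held the first, 3.17% the second, 1.74% the third and 12.4% the fourth. The 3 promoters below belong to genes called higher in LCC against both other libraries, and matches are in capitals, which overlap nowhere.
Sftpb, chr6:72304360-72304609, plus strand: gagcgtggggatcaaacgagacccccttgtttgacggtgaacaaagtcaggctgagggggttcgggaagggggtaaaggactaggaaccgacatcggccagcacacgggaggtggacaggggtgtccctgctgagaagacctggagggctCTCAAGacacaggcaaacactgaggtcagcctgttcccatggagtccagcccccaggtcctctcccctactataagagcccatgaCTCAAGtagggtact
Sftpa1, chr14:41131538-41131787, plus strand: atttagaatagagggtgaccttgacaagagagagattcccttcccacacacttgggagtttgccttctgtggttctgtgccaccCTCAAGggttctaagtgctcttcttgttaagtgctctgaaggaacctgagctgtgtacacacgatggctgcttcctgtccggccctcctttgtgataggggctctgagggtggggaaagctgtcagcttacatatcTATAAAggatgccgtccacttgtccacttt
Scgb3a1, chr11:49663345-49663594, plus strand: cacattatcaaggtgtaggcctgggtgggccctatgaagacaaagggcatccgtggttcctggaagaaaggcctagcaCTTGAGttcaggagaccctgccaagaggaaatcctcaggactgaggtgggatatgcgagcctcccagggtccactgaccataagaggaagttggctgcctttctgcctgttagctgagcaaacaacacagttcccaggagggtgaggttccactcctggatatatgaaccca

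The Sftpb window held CTCAAG 2 times, beginning at -100 and -15 from the start site. The Sftpa1 window held it 1 time, at -166, and the motif TATAAA beginning at -30. The Scgb3a1 window held it 1 time on the opposite strand, at -172, where the printed strand reads CTTGAG. The windows of Cyp2f2 and Nkx2-1 held 0 matches to the 4 motifs, and that of Lamp3 held 1, the motif TGTTTAC beginning at -92. A match in letters describes the sequence and says nothing of binding in these cells.

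Among further genes of alveolar type II cells, Napsa was called higher in LCC against both libraries and Lyz1 against MG. All 12 on that list were in the tables, 9 passed the filter for LCC against E-Int29-Hi and 1 was called higher, and 10 passed for LCC against MG with 2 called higher, and 0 were lower in either. Over all genes tested, 4.64% and 1.33% were called higher in these comparisons. Napsa, a protease that processes surfactant protein B, stood at 6.81 FPKM in LCC, 0.371 FPKM in E-Int29-Hi and 0.640 FPKM in MG, with log2 changes of 2.51 and 2.25. Lyz1, a lysozyme, stood at 8.28 FPKM in LCC, 6.03 FPKM in E-Int29-Hi and 1.25 FPKM in MG. Abca3, the lipid transporter of lamellar bodies, stood at 7.85 FPKM in LCC, 2.17 FPKM in E-Int29-Hi and 11.5 FPKM in MG. Lpcat1, which remodels surfactant lipid, stood at 12.7 FPKM in LCC, 3.25 FPKM in E-Int29-Hi and 5.41 FPKM in MG. Ctsh, a lysosomal protease, stood at 23.8 FPKM in LCC, 6.24 FPKM in E-Int29-Hi and 28.0 FPKM in MG. Cxcl15, a chemokine of lung epithelium in mice, stood at 1.38 FPKM in LCC, 0.577 FPKM in E-Int29-Hi and 8.08 FPKM in MG, a log2 change of -1.93 for LCC over MG. Abca3, Ctsh, Cxcl15, Hc, Acoxl and Pgc all had their highest level in MG. The list's median log2 change was 1.38 for LCC over E-Int29-Hi and 0.22 for LCC over MG, beside 0.26 and 0.01 over all genes tested. Acoxl and Pgc were listed at 0 in LCC.

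Of 12 further club cell genes, 4 passed the filter for LCC against E-Int29-Hi and 0 were called. Against MG, 5 passed and 1, Upk3a, a uroplakin, was lower in LCC, at 0.0227 FPKM in LCC, 0.143 FPKM in E-Int29-Hi and 7.27 FPKM in MG. Gsta3, a glutathione transferase, stood at 2.04 FPKM in LCC, 0.0263 FPKM in E-Int29-Hi and 0.160 FPKM in MG. Ces1d, a carboxylesterase, stood at 2.64 FPKM in LCC, 0.104 FPKM in E-Int29-Hi and 0.856 FPKM in MG. Bpifa1, an airway secretory protein named Plunc in the tables, stood at 0.930 FPKM in LCC, was listed at 0 in E-Int29-Hi and stood at 0.0389 FPKM in MG. Cbr2 and Fmo2, which other tissues also express, were highest in E-Int29-Hi. Cbr2, a carbonyl reductase, stood at 14.5 FPKM in LCC, 52.0 FPKM in E-Int29-Hi and 19.3 FPKM in MG. Upk3a, Reg3g, Gabrp, Bpifb1 (U46068 in the tables) and Muc5b were highest in MG. The club list's median log2 change was -0.10 for LCC over E-Int29-Hi and -0.39 for LCC over MG. Over all genes tested, 4.64% were called higher in LCC than in E-Int29-Hi and 4.35% lower, and 1.33% and 2.63% against MG.

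Genes of alveolar type I cells, the flat cells of gas exchange, differed in direction. Of 10 alveolar type I genes, 7 passed the filter in each comparison. Over all genes tested, 4.64% were called higher in LCC than in E-Int29-Hi and 1.33% than in MG. The shares called lower were 4.35% and 2.63%. Ager, a receptor that marks alveolar type I cells in lung, stood at 7.44 FPKM in LCC, 1.14 FPKM in E-Int29-Hi and 1.11 FPKM in MG, just short of 4-fold over E-Int29-Hi (log2 change of 1.98) and just past it over MG. Gprc5a was called higher in LCC than in E-Int29-Hi, at 67.2 FPKM in LCC, 15.6 FPKM in E-Int29-Hi and 22.2 FPKM in MG. Aqp5, a water channel, was called lower in LCC than in MG, at 0.684 FPKM in LCC, 1.03 FPKM in E-Int29-Hi and 30.1 FPKM in MG. Pdpn and Emp2, which basal mammary cells and other cells also express, were at 144 and 36.2 FPKM in LCC, 157 and 30.3 FPKM in E-Int29-Hi, and 65.2 and 14.7 FPKM in MG. Cldn18, whose lung form belongs to alveolar epithelium, stood at 0.318 FPKM in LCC and was listed at 0 in the other libraries.

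Genes of ciliated airway cells, the neighbours of club cells, were not called in any direction. Of 10, 6 were listed at 0 in LCC, namely Tekt1, Rsph4a, Dnah5 (Dnahc5 in the tables), Dynlrb2, Ccdc153 and Hydin. The count was 2 for E-Int29-Hi and 3 for MG. Zeros were also most frequent for LCC over all 22077 gene names (LCC 6819, E-Int29-Hi 4952, MG 3163). Tekt1 and Dynlrb2 were at 0 in every library, and Rsph4a, Dnah5 and Hydin reached at most 0.0740 FPKM outside LCC. Ccdc153 stood at 1.48 FPKM in E-Int29-Hi and at 0 in MG, so the zeros do not show an absence particular to LCC. The ciliated list summed to 37.6 FPKM in LCC, 41.8 FPKM in E-Int29-Hi and 28.6 FPKM in MG, and Tppp3, which is not limited to ciliated cells, made up 33.3, 32.2 and 26.8 FPKM of these. Foxj1, a factor that drives the formation of motile cilia, stood at 3.69 FPKM in LCC, 7.75 FPKM in E-Int29-Hi and 1.33 FPKM in MG. In the 2 comparisons with LCC, 3 and 2 of the ciliated genes passed the filter and 0 were called. Over all genes tested, 4.64% and 1.33% were called higher and 4.35% and 2.63% lower.

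**Figure D4:**
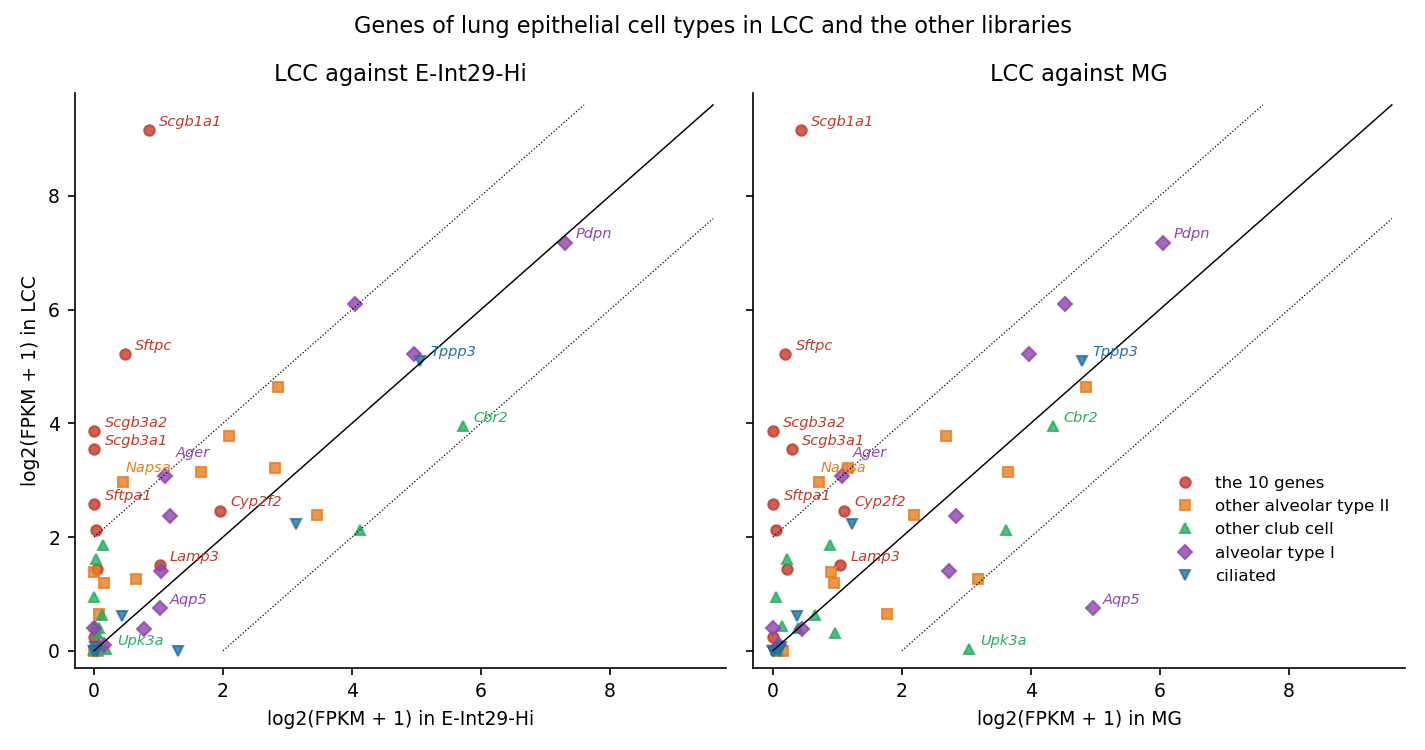
Log2(FPKM + 1) in LCC (y axis) against E-Int29-Hi (x axis, left) and MG (x axis, right), 1 point per gene of 5 lung epithelial lists; the solid line is equality and dotted lines are 4-fold. Scgb1a1 and Sftpc stand highest above the upper line, and few genes of the further alveolar type II, club, type I and ciliated lists lie outside the dotted lines.

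Among transcription factors known to act with Nkx2-1, 1 was called higher and 1 lower in LCC than in E-Int29-Hi, where 4.64% and 4.35% of all genes were. Of 13 listed, 12 were analysed, and 10 passed the filter in each comparison. Foxa2, which acts on surfactant and secretoglobin genes, stood at 0.842 FPKM in LCC, 0.0403 FPKM in E-Int29-Hi and was listed at 0 in MG, and so did not pass the filter. Foxa1 stood at 2.80 FPKM in LCC, 0.761 FPKM in E-Int29-Hi and 10.3 FPKM in MG. Ehf, an epithelial ETS factor, was called higher in LCC than in E-Int29-Hi, at 26.4 FPKM in LCC, 1.92 FPKM in E-Int29-Hi and 19.0 FPKM in MG. Stat3, a cytokine-activated factor, was called lower in LCC than in E-Int29-Hi, at 57.7 FPKM in LCC, 325 FPKM in E-Int29-Hi and 150 FPKM in MG. Against MG, 0 of the 10 were called, where 1.33% of all genes tested were called higher and 2.63% lower. Sox2, a factor of the airway epithelium, was listed at 0 in LCC.

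The list of surfactant lipid handling, secretion and clearance, which shares 6 genes with the further alveolar type II list, had 14 of 15 genes past the filter in the comparisons with LCC. Of these, 2, Csf2 and Napsa, were called higher in LCC against each other library. Over all genes tested, 4.64% were called higher against E-Int29-Hi and 1.33% against MG, and 4.35% and 2.63% lower. Csf2 encodes GM-CSF, which alveolar macrophages need to clear surfactant. It stood at 464 FPKM in LCC, 0.694 FPKM in E-Int29-Hi and 18.7 FPKM in MG. Adgrf5 (Gpr116 in the tables), a receptor that limits surfactant secretion and that endothelium also expresses, was called lower in LCC than in MG, at 12.6 FPKM in LCC, 14.1 FPKM in E-Int29-Hi and 62.7 FPKM in MG. Prdx6, a surfactant phospholipase and peroxiredoxin found in many tissues, stood at 72.6 FPKM in LCC, 52.4 FPKM in E-Int29-Hi and 39.9 FPKM in MG.

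Of the family relatives of the 10 genes, 1 was called higher in LCC than in E-Int29-Hi, where 4.64% of all genes tested were. Against MG, 0 were called higher, beside 1.33% of all genes tested. The shares of all genes called lower were 4.35% and 2.63%. Of 30 listed, 29 were analysed, 17 were listed at 0 in LCC, and 10 passed the filter in each comparison with LCC. Psap, the saposin precursor related to Sftpb, stood at 537 FPKM in LCC, 313 FPKM in E-Int29-Hi and 296 FPKM in MG. Lamp1, a general lysosomal relative of Lamp3, stood at 208 FPKM in LCC, 92.3 FPKM in E-Int29-Hi and 111 FPKM in MG. Colec12, a membrane collectin, was called higher in LCC than in E-Int29-Hi, at 13.5 FPKM in LCC, 2.19 FPKM in E-Int29-Hi and 8.30 FPKM in MG. Cyp2s1, a relative of Cyp2f2, was called lower in LCC than in both, at 0.126 FPKM in LCC, 3.63 FPKM in E-Int29-Hi and 3.55 FPKM in MG. Itm2a, which shares the BRICHOS domain with Sftpc, was called lower in LCC than in MG, at 3.67 FPKM in LCC, 7.01 FPKM in E-Int29-Hi and 36.9 FPKM in MG. Of 5 other Nkx2 genes, 0 were above 0 in LCC.

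Markers of other cells that a lung digest can hold moved in more than one direction beside these genes. Mature dendritic cell genes, which bear on Lamp3, were all above 0 and all higher by some amount in LCC. Of these, 8 of 12 were called higher against E-Int29-Hi and 3 of 12 against MG. For this and the next lists, 4.64% of all genes tested were called higher against E-Int29-Hi and 1.33% against MG. The shares called lower were 4.35% and 2.63%. The dendritic cell list summed to 359 FPKM in LCC, 83.5 FPKM in E-Int29-Hi and 125 FPKM in MG. Its highest genes in LCC were Fscn1, at 73.4 FPKM in LCC, 32.4 FPKM in E-Int29-Hi and 54.7 FPKM in MG, then Relb, Ccl22 and Ccl17. Alveolar macrophage genes summed to 31.9 FPKM in LCC, 8.40 FPKM in E-Int29-Hi and 33.6 FPKM in MG. Of 12 macrophage genes, 2 of 6 past the filter, Itgax and Ear2, were called higher against E-Int29-Hi, and 1 of 7, Itgax, against MG. Siglecf (Siglec5 in the tables), Ear1 and Fabp1 were listed at 0 in LCC, and Ear1 was at 0 in every library. Marco, a scavenger receptor, stood at 0.576 FPKM in LCC, 0.211 FPKM in E-Int29-Hi and 0.141 FPKM in MG. Ear2 stood at 3.19 FPKM in LCC, 0.0346 FPKM in E-Int29-Hi and 0.297 FPKM in MG. Atp6v0d2, a proton pump subunit, stood at 3.44 FPKM in LCC, 0.132 FPKM in E-Int29-Hi and 0.162 FPKM in MG, with log2 changes of 1.97 and 1.93, just short of a call. Marco, Ear2, Atp6v0d2 and Itgax were thus highest in LCC, while Chil3 (Chi3l3 in the tables), Car4, Krt79, Mrc1, Pparg and Siglecf were highest in MG. The macrophage list's median log2 change was 1.68 for LCC over E-Int29-Hi and -0.57 for LCC over MG. Itgax, an integrin that dendritic cells also carry, stood at 10.8 FPKM in LCC, 0.462 FPKM in E-Int29-Hi and 0.915 FPKM in MG. Lung capillary endothelial genes summed to 124 FPKM in LCC, 84.7 FPKM in E-Int29-Hi and 485 FPKM in MG, with 0 of 9 called higher and 2, Cldn5 and Cdh5, lower against MG. Lung stromal genes summed to 23.1 FPKM in LCC, 4.32 FPKM in E-Int29-Hi and 27.4 FPKM in MG. Of these, 2 of 6, Wnt2 and Inmt, were called higher against E-Int29-Hi, and 0 of 8 were called against MG. The endothelial and stromal lists both had their highest sum in MG, intact mammary gland, so their genes are not limited to lung. The part of any of these cells in the levels of the 10 genes was not tested.

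Genes listed here for mammary epithelium were above 0 in each library, and the part of lung epithelium in their levels was not tested. Of 12 mammary luminal genes, 0 were listed at 0 in any library, and they summed to 4500 FPKM in LCC, 397 FPKM in E-Int29-Hi and 3132 FPKM in MG. Krt8, Krt18 and Cldn4 were the only genes of the luminal list that were higher in LCC than in MG by any amount. The other 9 were lower, 6 of them called (Elf5, Csn3, Wfdc18 (Expi in the tables), Esr1, Pgr and Prlr), and the luminal median log2 change was -2.22 for LCC over MG. Pgr, the progesterone receptor, stood at 0.179 FPKM in LCC, 2.07 FPKM in E-Int29-Hi and 43.9 FPKM in MG. The 10 basal genes summed to 693 FPKM in LCC, 8205 FPKM in E-Int29-Hi and 537 FPKM in MG. All 10 were called lower in LCC than in E-Int29-Hi. Over all genes tested, 4.35% were called lower against E-Int29-Hi and 2.63% against MG. Against MG, the keratins Krt5, Krt14 and Krt17 were higher in LCC by some amount and the other 7 lower, with 2, Myh11 and Oxtr, called lower and a median log2 change of -0.94. Epcam, a gene behind the gate, stood at 325 FPKM in LCC, 279 FPKM in E-Int29-Hi and 209 FPKM in MG. Scgb1a1 in LCC was thus above Epcam and below Krt18, the luminal keratin, which stood at 2368 FPKM in LCC, 73.5 FPKM in E-Int29-Hi and 819 FPKM in MG.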

How the data were processed

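Messenger RNA was isolated with poly-T beads for TruSeq libraries and read on an Illumina HiSeq, per the labels' protocols. The deposited tables, 1 for each library, give the authors' FPKM and a status for every gene model. The submitters' processing notes list TopHat 1.4.1, Cufflinks 1.3.0 and mm9, with no role. No annotation release is named in the labels used.

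Of 22378 models, 22188 had status OK throughout and entered the analysis. Where models shared a name (105 names), the one with the highest summed FPKM stood for it, leaving 22077 names. Log2 changes used a pseudocount of 1. A single library per group allowed no test. Fragment numbers assume GENCODE M21 transcript lengths and cover no sampling of cells or animals.

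The members and lists were chosen with earlier results of these data known. From each of 13 further lists, up to 4 genes with the highest FPKM could be named, as could those at least 4-fold apart in the lung epithelial lists and the 5 profile neighbours of Scgb1a1 and of Sftpc. Other genes named were chosen after their values were seen. Of 158 list symbols, 2 were not analysed here, and older names were matched by gene identifier. Alternatives were other pseudocounts, filters and scalings, summed models, genes of every status and genes at 0 left out. The fold call and the search for the fragment step were checked on simulated data, the call with changes set in well-expressed genes only. The remaining parts were not simulated. Python 3.11.15, numpy 2.4.6, pandas 2.3.3 and matplotlib 3.10.9 were used.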

Additional observations from a re-analysis of the deposited data

How the results depend on the processing

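Each group was 1 library, so leaving out a replicate was not possible and the precision between pools is unknown. No paired analysis was possible because each group has 1 library. The counts of members called moved with the pseudocount. At a pseudocount of 5, 2 members were higher in LCC against E-Int29-Hi and 2 against MG, where 6 were higher with a pseudocount of 1. Leaving out genes listed at 0, chosen after seeing the data, gave 3 against E-Int29-Hi and 5 against MG. The median change of the members for LCC against E-Int29-Hi was 2.58, and 5.67 at a pseudocount of 0.1, 0.998 at 5 and 4.31 with a filter of 5 FPKM. For LCC against MG it was 2.57, and 5.07, 0.996 and 4.45 under the same settings. Between E-Int29-Hi and MG the median was 0.41 over 2 genes, 0.17 at a pseudocount of 5 and -0.0049 with no filter, and a filter of 5 FPKM left no member to take a median of. Scaling by median ratios, TPM, summed models and genes of every status left the counts of members within 1.5 times. Values for single genes were taken in each comparison where the gene was above 0 in both libraries, whether or not it passed the filter. Of 120 such values under the alternatives, 113 stayed on the same side of 4-fold. A further 4 no longer passed it, all at a pseudocount of 5 (Sftpb in both comparisons with LCC, Scgb3a1 and Sftpa1 against MG). The remaining 3, all of Sftpd, now did, and no called value changed sign. Left out of these values were the calls that involve a 0, of Scgb3a1, Scgb3a2 and Sftpa1 against E-Int29-Hi and of Scgb3a2 against MG. These calls were also lost at a pseudocount of 5.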

Other observations

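Among the 58 gene names above 0 in LCC and listed at 0 in both E-Int29-Hi and MG, 2 reached 1 FPKM, Scgb3a2 and Ang2 (3.71 FPKM). Besides Scgb3a2 and Nkx2-1, these names included Sfta2, a surfactant-associated gene of the lung that was chosen after its values were seen, at 0.556 FPKM in LCC. The names also included Ddx3y and Eif2s3y, genes of the Y chromosome, chosen after their values were seen. They stood at 0.976 and 0.947 FPKM in LCC. Uty and Kdm5d, also of the Y chromosome, stood at 0.352 and 0.0565 FPKM in LCC, while Uty stood at 0.00548 FPKM in E-Int29-Hi and both were otherwise listed at 0. The design text gives the FVB.GFP donors as females, and the sex of the recipients and of the donors of DDAO-stained cells is not stated in the labels used. Whether the cells behind these transcripts are also those behind the lung epithelial genes was not tested.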
